A study of Caenorhabditis elegans with 4 samples.

Results

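mir-251 and mir-252 are the 2 members of 1 *C. elegans* miRNA family. They were chosen by name among the rows of the deposited counts, and they account for 5 of the 697 rows, made up of 2 of the 250 hairpins and 3 of the 434 mature strands. Small RNA was sequenced from whole hermaphrodites on day 0 of the adult stage, and each of the 4 strains gave 1 library. WT was N2 Bristol and *glp-1(e2144)* was the temperature-sensitive germline mutant CF1903, both kept at 25 °C. ALG-1/OE was CT20, which carries the integrated transgene zaIs5 with GFP::alg-1 under the *alg-1* promoter, and ctrl was PE255, which carries feIs5 with luciferase::GFP under the *sur-5* promoter. Both transgenic strains carry the marker *rol-6(su1006)* and were kept at 20 °C. No treatment other than the small RNA purification, common to the 4 libraries, is given. Each library is a pool of worms without a replicate, so no difference between strains could be tested. All intervals below are 95% intervals that cover counting error only.

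miRNAs are small RNAs cut from a hairpin precursor, and 1 strand of the resulting duplex is kept by an Argonaute protein such as ALG-1. The bases at the 5′ end of the kept strand, known as the seed, pair with target mRNAs, and miRNAs with alike 5′ ends are grouped into families because they can share targets. mir-252 has a homologue in *Drosophila* and in many other animals, whereas mir-251 is its relative within the worm.

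The hairpins lie apart in the genome. cel-mir-252 (WBGene00003346) lies on chromosome II from 11446863 to 11446960 on the minus strand. It is antisense to an intron of the protein-coding gene W02B12.13 and to an exon of the noncoding RNA gene W02B12.17. Its 5p strand, miR-252-5p, is annotated over 23 bases (11446918 to 11446940) and its 3p strand, miR-252-3p, over 19 bases (11446883 to 11446901). cel-mir-251 (WBGene00003345) lies on chromosome X from 11004728 to 11004824 on the plus strand, between genes, 160 bases from the 3′ end of *del-5*, which encodes a degenerin-like protein and lies on the other strand. It has 1 annotated mature strand, miR-251, of 22 bases (11004746 to 11004767). All 5 rows have the same coordinates in the files and in WBcel235, the build of the annotation.

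Between 175048 and 536907 reads fell on mature miRNAs per library, and *glp-1(e2144)* was the deepest. Levels are given as reads per 1000000 mature miRNA reads (RPM). The germline and embryo miRNAs mir-35 to mir-42, by the more abundant strand of each, summed to 108833 RPM in WT, 84401 in ALG-1/OE, 62697 in ctrl and 711 in *glp-1(e2144)*, and none of the 8 was at 0 in any library. By the more abundant strand, the muscle miRNA mir-1 (miR-1-5p) had between 7 and 27 reads and the intestinal mir-60 between 445 and 2002. The other strand of mir-1, miR-1-3p, had 8 reads over the 4 libraries, against 54 of miR-1-5p, and was at 0 in WT. Of the neuronal miRNAs, lsy-6 had between 7 and 23 reads. mir-124 had 2 reads in *glp-1(e2144)*, both of miR-124-5p, and was at 0 in the 3 other libraries. miR-124-3p had 0 reads in all 4 libraries. In whole worms, fewer cells of a type and less RNA per cell cannot be told apart. Loss of a strand in preparation or mapping was not tested for these markers either. Few or 0 reads of a strand in all 4 libraries thus do not bound its level in the worm.

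miR-252-5p was the strand on which most of the family's reads lay. It had 17 reads in WT, 20 in ctrl, 29 in ALG-1/OE and 110 in *glp-1(e2144)*. These counts correspond to 80.5 RPM (46.9 to 129) in WT, 114 RPM (69.8 to 176) in ctrl, 122 RPM (81.5 to 175) in ALG-1/OE and 205 RPM (168 to 247) in *glp-1(e2144)*. The order of levels was therefore WT, ctrl, ALG-1/OE and *glp-1(e2144)*. The intervals of WT, ctrl and ALG-1/OE overlapped, so these neighbours did not separate at this depth. The interval of *glp-1(e2144)* lay wholly above that of WT and overlapped slightly with those of the 20 °C libraries.

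miR-251 was rare in every library, with 1 read in WT, 2 in ctrl, 2 in ALG-1/OE and 8 in *glp-1(e2144)*. Its levels were 4.74 RPM (0.12 to 26.4) in WT, 11.4 RPM (1.38 to 41.3) in ctrl, 8.40 RPM (1.02 to 30.3) in ALG-1/OE and 14.9 RPM (6.43 to 29.4) in *glp-1(e2144)*. All 4 intervals overlapped. Outside *glp-1(e2144)* the counts were at or below 3 reads, the number that a count of 0 allows.

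**Figure D1:**
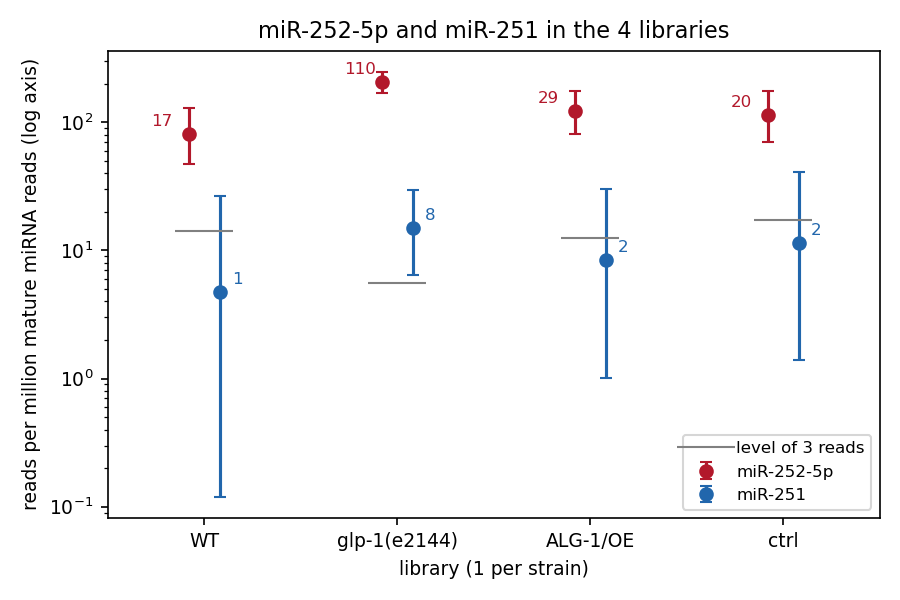
RPM (log axis) of miR-252-5p and miR-251 in the 4 libraries, with 95% Poisson intervals of the counts, the read number beside each point, and a grey line at the level of 3 reads. miR-252-5p lies between 80.5 and 205 RPM and miR-251 between 4.74 and 14.9 RPM, and both are highest in *glp-1(e2144)* and lowest in WT.

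Among all miRNAs, miR-252-5p was of middle abundance and miR-251 was near the detection limit. By reads, miR-252-5p ranked 117th of the 231 mature miRNAs detected in WT, 104th of 215 in ctrl, 104th of 232 in ALG-1/OE and 79th of 230 in *glp-1(e2144)*. In WT it lay above 47.6% of the detected miRNAs and in *glp-1(e2144)* above 65.7%. miR-251 ranked 208th in WT, 178th in ctrl, 194th in ALG-1/OE and 151st in *glp-1(e2144)*, so it lay above 32.6% of the detected miRNAs in *glp-1(e2144)* and above none in WT, where its single read placed it with the rarest. Together both strands took 189 of the 1161267 mature miRNA reads of the 4 libraries.

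**Figure D2:**
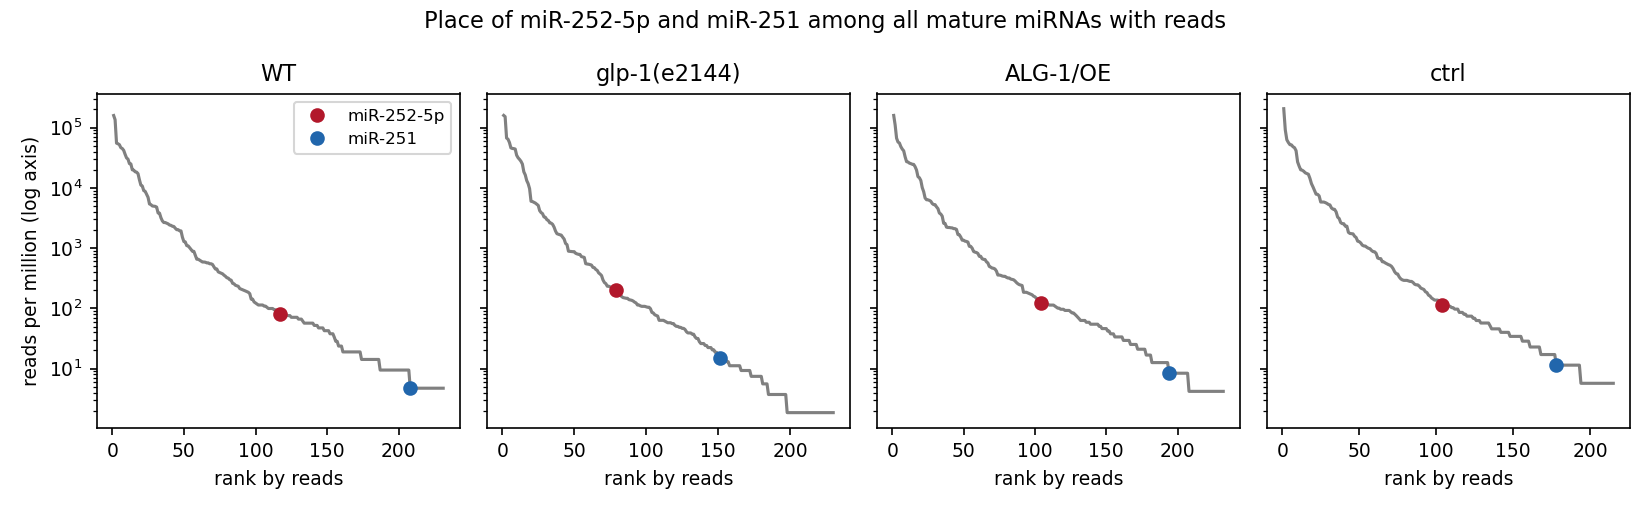
Mature miRNAs with reads in each library, ordered by rank (x axis) against RPM (log axis), with the grey line for all of them and points for miR-252-5p and miR-251. miR-252-5p sits at ranks 117 in WT, 104 in both 20 °C libraries and 79 in *glp-1(e2144)*, and miR-251 lies further right, at ranks from 151 to 208.

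The members were set against each other within each library, where the ratio does not depend on how libraries are scaled. miR-252-5p had 17 times as many reads as miR-251 in WT (interval 2.66 to 710.5), 10 times as many in ctrl (2.43 to 88.2), 14.5 times as many in ALG-1/OE (3.67 to 125) and 13.8 times as many in *glp-1(e2144)* (6.74 to 32.6). Every interval lay above 1, so miR-252-5p was the more abundant member in each of the 4 libraries beyond counting error. Over the 4 libraries miR-251 made up 6.88% of the 189 family reads (Clopper-Pearson interval 3.71% to 11.5%). In *glp-1(e2144)*, the library with the most family reads, its share was 6.78% (2.97% to 12.9%), and in WT it was 5.56% (0.14% to 27.3%).

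The balance between the members was then compared across strains. On the log2 scale the ratio of miR-252-5p to miR-251 differed by -0.31 in *glp-1(e2144)* from that in WT, with an interval from -5.86 to 2.75, and its sign turned, to 0.16, when 0.5 reads were added to each count. The difference of ALG-1/OE from ctrl, in which miR-251 had 2 reads each, was 0.54 (-3.37 to 4.42), and the difference of ctrl from WT was -0.77 (-6.73 to 3.63). Shifts of more than 4-fold in either direction lie within each of these intervals, so a change in the balance of the members was not detectable at this depth.

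The reads of mir-252 lay on 1 strand. miR-252-3p had 0 reads in each library, against 176 reads of miR-252-5p in total. By counting error, a count of 0 allows the 3p strand up to 1.70% of the reads of both strands over the 4 libraries. In single libraries the limits were 2.73% in *glp-1(e2144)*, 15% in ctrl, 10.3% in ALG-1/OE and 17.6% in WT. Loss of a strand in preparation or mapping is not covered by these limits and was not tested, so they do not bound its share in the worm. Of the 35 hairpins that have both mature strands annotated and between 50 and 500 reads over the 4 libraries, 10 (28.6%) had no read on the rarer strand, and mir-252 was among them. In none of the libraries did the mir-252 or mir-251 hairpin row hold a read beyond those on the mature strands. The same held for 76 of the 106 hairpins with at least 50 reads (71.7%).

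This placement bears on what the counts can hold. All 3 pairs of overlapping hairpins on opposite strands that had reads had identical counts in all 4 libraries, and whether strand was used in the counting is not given in the sources used here. Reads from W02B12.17, antisense to mir-252, therefore cannot be told apart by strand from those of mir-252. Its exon covers the mir-252 hairpin, which is 98 bases long, and all 176 reads counted on that hairpin lay on the 23 bases of miR-252-5p. No other row of the files overlapped either hairpin.

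Germline-less worms were compared with WT at 25 °C, the study's question being which miRNAs accompany this longevity model. miR-252-5p was 2.54-fold higher in *glp-1(e2144)* than in WT (1.52 to 4.53), a log2 ratio of 1.35 (0.60 to 2.18). At the share of WT, the *glp-1(e2144)* library would have held 43.2 reads of miR-252-5p, and it held 110. The counting interval lay above 0 and included the study's cut-off of 1. Over all mature miRNAs with reads in both libraries the median log2 ratio was -0.01, 19 of 199 (9.55%) lay above 1 and 54 (27.1%) lay below -1, of which 0 and 13 had at most 3 reads in both libraries. miR-252-5p took place 8 from the top of the 199, and place 3 of the 128 for which neither library had fewer than 10 reads, whose median was 0.17.

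For miR-251 the value had the same sign but rested on far fewer reads. The 8 reads in *glp-1(e2144)* and the single read in WT gave a log2 ratio of 1.65, with an interval from -1.25 to 7.13 that includes 0. At the share of WT, 2.54 reads would have been counted in *glp-1(e2144)*. A difference for miR-251 alone was therefore not detectable at this depth.

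These ratios are relative to the total of mature miRNA reads. When the libraries were instead scaled to their total of sequenced reads, as the methods describe, by a constant recovered for each comparison, the log2 ratio of every miRNA in this comparison rose by 0.93, which brought miR-252-5p to 2.28 and miR-251 to 2.59. The share of miRNAs above the cut-off rose with it, from 9.55% to 46.2%, and the share below -1 fell to 15.6%. mir-35 to mir-42 lost most of their reads in the same comparison, with a median log2 ratio of -7.24 over the 8 and values from -7.64 to -3.45, and leaving that family out of the total gave 1.17 for miR-252-5p and 1.48 for miR-251. Any further part of the germline markers in the result was not tested. The nearest hairpin to mir-252 in the files is mir-35, at a distance of 90648 bases on the opposite strand, and all 8 hairpins of that family lie on chromosome II. Neighbours on this chromosome thus had ratios of opposite sign in *glp-1(e2144)*.

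ALG-1/OE was compared with ctrl at 20 °C, to ask which miRNAs accompany a higher dose of the Argonaute. miR-252-5p had 29 reads in ALG-1/OE, where 27.2 would have been counted at the share of ctrl, and its log2 ratio was 0.09 (-0.78 to 0.99). This value was close to the median of all 204 miRNAs measured, 0.14, and its sign changed with TMM factors, which gave -0.08. Above the cut-off were 11.3% of the 204, and 6.86% were below -1. As a fold the interval ran from 0.58 to 1.99, so a difference of miR-252-5p within these bounds was not detectable at this depth. With the total of sequenced reads as the scaling every value rose by 0.46, miR-252-5p reached 0.55, under the cut-off, while 26.5% of the miRNAs lay above 1 and 2.45% below -1. miR-251 had 2 reads in each library, and no ratio is reported from these counts alone.

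The control libraries were compared to show how far worms without *glp-1(e2144)* or *alg-1* overexpression lie apart. They differ in transgene and temperature, which cannot be told apart. miR-252-5p was higher in ctrl than in WT by 0.50 on the log2 scale, with an interval from -0.50 to 1.53 that includes 0. Among the 198 miRNAs measured the median was 0.04 and 10.6% lay above the cut-off and 11.1% below -1. The ratios of *glp-1(e2144)* and of ctrl share the WT library, so the 17 reads of miR-252-5p in WT, the lowest of the 4 counts, enter both.

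**Figure D3:**
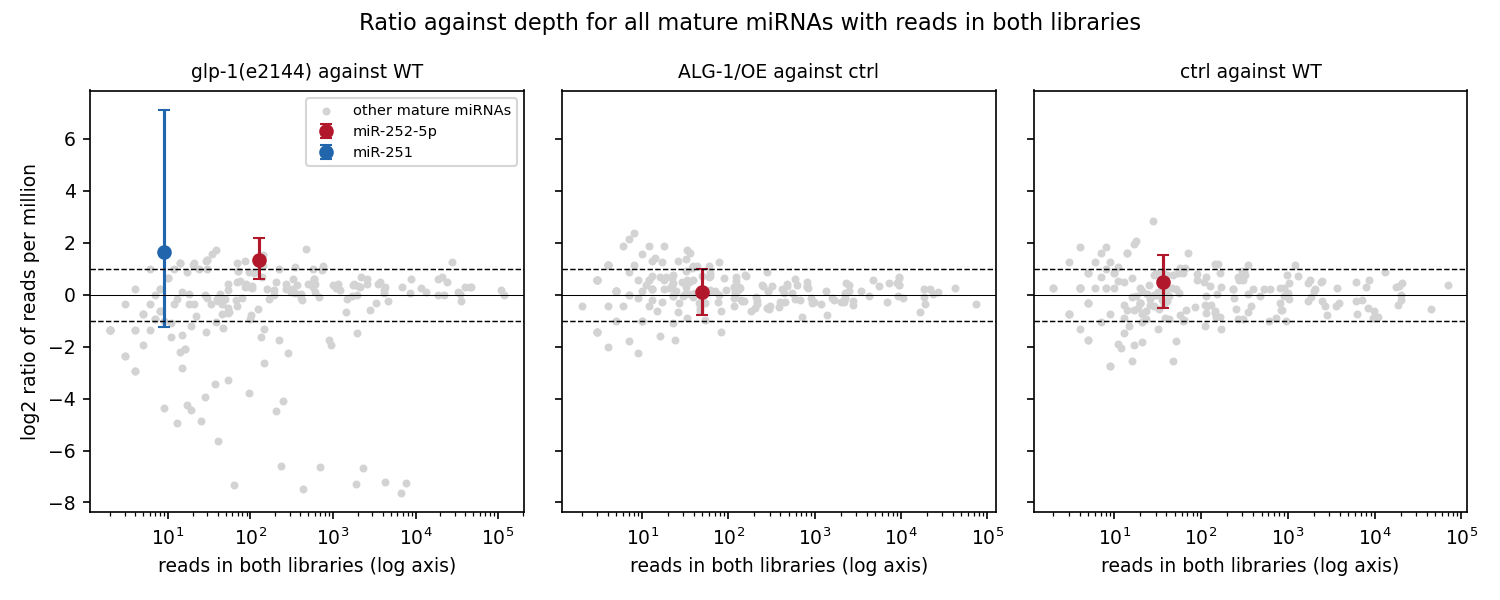
Log2 ratio of RPM (y axis) against the summed reads of both libraries (log axis) for every mature miRNA with reads in both, with dashed lines at the cut-offs of -1 and 1 and 95% Clopper-Pearson intervals for miR-252-5p and miR-251. miR-252-5p lies at 1.35, 0.09 and 0.50 from left to right. miR-251, at 1.65 with an interval across 0, is drawn only in the left panel because elsewhere it had at most 3 reads in both libraries.

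Other miRNA families shared with insects served as a comparison for mir-252, with 1 miRNA for each of 17 families, by its more abundant strand. In *glp-1(e2144)* against WT, 15 of the 17 could be measured, with a median log2 ratio of 0.17. Of these, 1 lay above the cut-off, lin-4-5p, a regulator of larval timing, with 12 reads against 2 and a log2 ratio of 1.24 (-0.93 to 4.44). miR-51-5p, of the miR-100 family, lay below the lower cut-off with 376 reads against 560 and a log2 ratio of -1.92 (-2.11 to -1.73). It does not stand for its family. The more abundant strands of mir-52 to mir-56 lay between -0.33 (miR-52-5p) and 0.12 (miR-56-3p). The value of miR-252-5p, 1.35 (0.60 to 2.18), was above that of each of the 15. It lay within the interval of lin-4-5p, so these 2 did not separate at this depth. The interval of miR-252-5p also overlapped those of miR-1-5p (-1.21 to 0.94) and miR-87-3p (-0.13 to 0.62). It overlapped those of miR-71-5p (0.52 to 0.67) and miR-235-3p (0.62 to 0.71) as well, and lay wholly above the rest. In ALG-1/OE against ctrl, 14 were measured, from -0.64 to 0.71 with a median of 0.13, and 0 passed either cut-off. The lowest was miR-1-5p, with 7 reads against 8. The other strand, miR-1-3p, had 5 reads against 1 and a log2 ratio of 1.88. The value of miR-252-5p, 0.09, lay inside the range of the 14.

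The profile of miR-252-5p over the 4 libraries was compared with that of 138 other miRNAs that had reads in all 4 libraries and at least 50 reads in sum. Likeness was measured as the root mean square difference of log2 RPM, each miRNA centred on its own mean, and its median over the 138 was 0.55. The closest was miR-246-3p, at 0.12. It had 18443 RPM in WT, 22862 in ctrl, 22370 in ALG-1/OE and 43991 in *glp-1(e2144)*. A far more abundant miRNA thus also had *glp-1(e2144)* above the 3 other libraries and WT below them. Its level in ctrl was slightly above that in ALG-1/OE, unlike that of miR-252-5p. The sister strand miR-246-5p followed at 0.18, with 18.9 RPM in WT, 34.3 in ctrl, 29.4 in ALG-1/OE and 63.3 in *glp-1(e2144)*. It had 4 reads in WT, 6 in ctrl, 7 in ALG-1/OE and 34 in *glp-1(e2144)*. With 51 reads in sum, it met the minimum of 50 only through *glp-1(e2144)*. miR-71-3p came next at 0.20, with 549 RPM in WT, 874 in ctrl, 647 in ALG-1/OE and 1194 in *glp-1(e2144)*.

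For miR-251 the closest of 139 miRNAs were miR-246-5p at 0.19, miR-240-3p at 0.23 and miR-359 at 0.24, against a median of 0.67. miR-252-5p was also among the 139 but not among these 3. Centred log2 RPM of miR-252-5p and miR-251 was -0.61 and -0.94 in WT and 0.74 and 0.72 in *glp-1(e2144)*. It was -0.02 and -0.11 in ALG-1/OE and -0.11 and 0.33 in ctrl. miR-240-3p had 260 RPM in WT, 588 in ctrl, 416 in ALG-1/OE and 544 in *glp-1(e2144)*. Unlike both members, it was therefore highest in ctrl. miR-246-5p was among the 3 closest miRNAs of both members. It met the read minimum only through its 34 reads in *glp-1(e2144)*, the library in which both members were highest. A minimum met in this way favours such a profile, so no likeness between the members is drawn from this shared place. The profile of miR-251 rests on 13 reads in all, and the spread of a few reads is larger than the distances between these miRNAs, so their order is a description of these 4 libraries only.

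**Figure D4:**
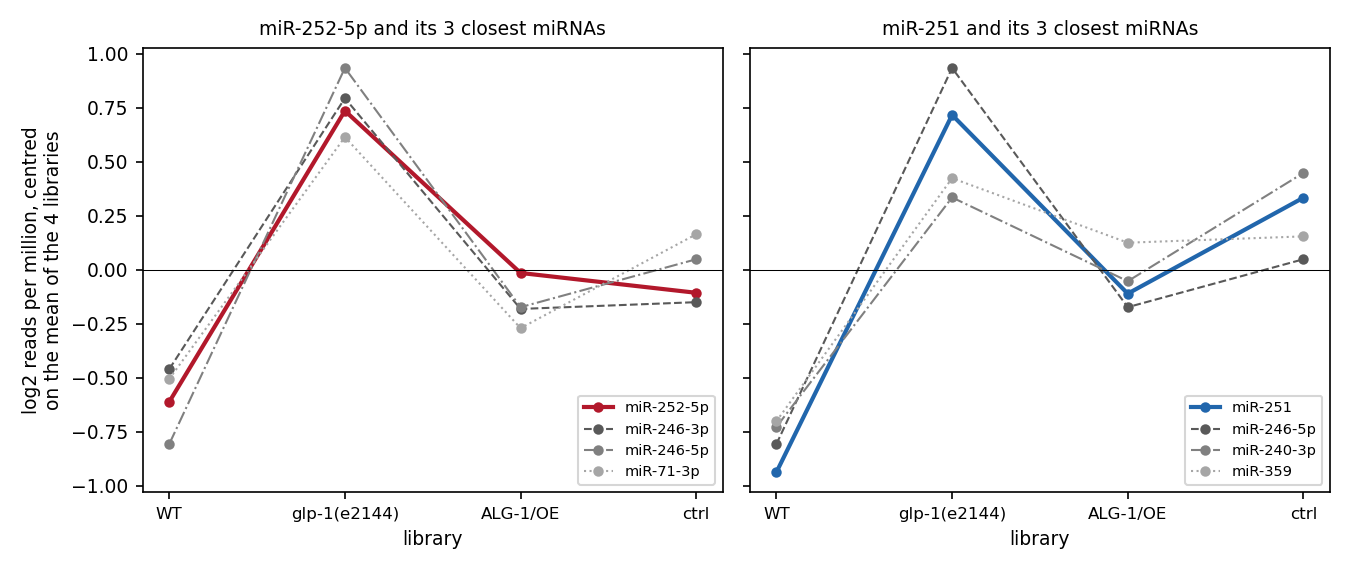
Log2 RPM, centred on the mean of the 4 libraries (y axis), for miR-252-5p (left) and miR-251 (right) with the 3 closest miRNAs of each. In both panels every line is lowest in WT, and the member itself is highest in *glp-1(e2144)*, at 0.74 for miR-252-5p and 0.72 for miR-251.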

How the data were processed

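Small RNA was enriched from total RNA of pooled worms, 1 library per strain. The labels name a SOLiD kit and the methods an Illumina sequencer. The authors trimmed and length-filtered the reads (Fastx-ToolKit), mapped them to ce10 with Bowtie2 and deposited raw read counts per hairpin and mature strand, without normalization. How reads with several matches were assigned is not given in the sources used here. The series description calls CT20 the control. The sample labels, which make PE255 the control, were followed.

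Rows were joined by coordinates and name. For the 434 mature names in 447 rows, the row with the most reads was kept. Counts were divided by the total of mature miRNA reads, since the total of sequenced reads per sample is not part of the counts. That scaling was recovered as 1 constant per comparison, from the listed fold changes and the counts, and used as an alternative. Ratios had no pseudocount and needed reads in both libraries. The counts and medians over all miRNAs include pairs with at most 3 reads in both libraries (17 in *glp-1(e2144)* against WT, 24 in ALG-1/OE against ctrl and 20 in ctrl against WT), for which no single ratio is reported. Intervals are 95% Poisson intervals for levels, Clopper-Pearson intervals for shares and ratios, and conditional odds ratio intervals between members. They do not cover variation between worms or preparations. The limit of 3 reads for a count of 0 is 1-sided and lies below the upper end of the Poisson interval of 0 reads. Alternatives were TMM factors (edgeR 4.0.16), median of ratios (DESeq2 1.42.0), the total without mir-35 to mir-42, 0.5 added reads, minimum reads and hairpin rows. No test was run.

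The coordinates of 243 of the 250 hairpins equal those of a gene in WBcel235, and neighbours of the members were read from it. Named miRNAs were the members, the 3 with the closest profile to each, and members of the marker and insect-homologue lists. The relatives mir-52 to mir-56 of the listed mir-51 were added. The members and lists were chosen with earlier results of these data known. The interval and scaling code was tested on simulated data. Python 3.11.15, scipy 1.17.1 and R 4.3.3 were used.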

Additional observations from a re-analysis of the deposited data

How the results depend on the processing

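Among the values of the members, the 1 that left its counting interval was the log2 ratio of miR-252-5p in *glp-1(e2144)* against WT, which was 2.28 with the total of sequenced reads as the scaling. Under the other alternatives it lay between 1.17 and 1.38. Scalings within the miRNA reads moved all values of a comparison by at most 0.17. Counts of miRNAs past 2-fold moved more. With at least 10 reads in both libraries, 9 lay above and 21 below it in *glp-1(e2144)*, while ALG-1/OE had 5 above and 1 below, and ctrl against WT had 7 and 6. With at least 10 reads in the higher library, 35 lay below it in *glp-1(e2144)*, 14 above and 4 below in ALG-1/OE, and 12 above in ctrl against WT. With the total of sequenced reads, 92 lay above and 31 below it in *glp-1(e2144)*, while ALG-1/OE had 54 above and 5 below. TMM factors left 14 above it in ALG-1/OE. These settings measure fewer miRNAs or shift all ratios by construction. The ratio of miR-251 is not reported for ALG-1/OE against ctrl or ctrl against WT under any setting, because neither library exceeded 3 reads. The difference between the members in *glp-1(e2144)* against WT changed sign with 0.5 added reads, from -0.31 to 0.16. No paired analysis was possible because there was 1 library per strain, and no replicate could be left out.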
